A study of Homo sapiens with 4 samples.

Results

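The genes described here are those of the splicing machinery and of the RNA-binding proteins that steer it. They were picked out by gene symbol, and the set was chosen with earlier results of these data known. It holds heterogeneous nuclear ribonucleoproteins (symbols starting HNRNP), serine and arginine-rich splicing factors (SRSF) and subunits of splicing factor 3A and 3B (SF3A, SF3B). It also holds proteins of the small nuclear ribonucleoproteins (SNRP) and the U2 auxiliary factor (U2AF). These members numbered 59 of the 20226 genes listed, made up of 23 hnRNP, 13 SRSF, 9 SF3A and SF3B, 11 SNRP and 3 U2AF rows. Another 31 pseudogene rows with the same prefixes were left out. RNA-seq was run on Huh7 cells, an established human hepatoma line, in 2 shNUP210 libraries, in which a short hairpin RNA targets the nuclear pore membrane glycoprotein gene NUP210, and in 2 shCon libraries, which carry a control hairpin. The labels give both groups as untreated and the shCon genotype as wild type; they name neither the hairpin sequences, nor clones, nor separate cultures. The p-values therefore set the difference between the groups against how far these libraries differed within a group. That spread may be purely technical.

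Splicing removes introns from pre-mRNA. The U1 and U2 small nuclear ribonucleoproteins recognise the 5′ splice site and the branch site, U2AF binds the 3′ end of the intron, and SF3A and SF3B anchor the U2 particle. The Sm proteins form the ring around the small nuclear RNAs. SRSF proteins mostly promote the use of nearby splice sites, whereas many hnRNPs repress it, and several members of both families limit their own amount by splicing their transcripts into forms that are degraded.

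Values are in TPM, a relative abundance that takes account of transcript length and library total, which allows genes to be set side by side but keeps no record of the number of reads, so the depth behind each value is unknown. NUP210 itself stood at 10.1 and 9.85 TPM in the shNUP210 libraries, against 32.8 and 27.3 TPM in the shCon libraries, a log2 fold change of -1.49 with an adjusted p of 0.0432 in limma; that call was lost when any 1 library was left out (adjusted p 0.162 to 0.167), with the replicate number as a block (0.0820), with a filter of 1 TPM (0.0781), with no filter (0.131) and without the variance trend (0.0991). All 12 hepatocyte and hepatoma markers examined reached 5 TPM; their summed level was 15565 and 15771 TPM in shNUP210 cells and 20679 and 20183 TPM in shCon cells, and limma called APOA1, TF, SERPINA1 and AHSG (4 of 12) lower. In such bulk samples fewer cells of a kind and less RNA per cell cannot be told apart. Endothelial markers were not listed (0 of 5). The myeloid genes LYZ, CD68 and CD14 summed to 48.1 and 25.8 TPM in shNUP210 cells and 166 and 152 TPM in shCon cells. LYZ was called lower, with 26.9 and 19.5 TPM in shNUP210 cells and 131 and 125 TPM in shCon cells (log2 fold change -2.43; limma adjusted p = 0.00977). Fibroblast markers (4 of 6 listed) summed to 36.2 and 19.2 TPM in shNUP210 cells and 10.7 and 15.2 TPM in shCon cells. The 100 most abundant genes took 37.6% and 38.1% of all TPM in the shNUP210 libraries, against 42.8% and 43.5% in the shCon libraries. Since TPM values sum to a fixed total, other genes have more of it in shNUP210 libraries; the part of this difference, and of the marker levels, in the results below was not tested.

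Splicing factor transcripts made up a larger share of the shNUP210 libraries, led by hnRNP and SRSF genes, and no member was lower in the test at the deposited scale. The 59 genes together took 1.07% and 1.08% of all TPM in shNUP210 cells, against 0.884% and 0.881% in shCon cells, a ratio of summed TPM of 1.22. Only HNRNPH1 passed the test across all genes. Genes as a whole also stood higher on this scale: the median log2 fold change, shNUP210 over shCon, was 0.34 over the tested members and 0.23 over all tested genes.

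The test was limma on log2(TPM + 1), on which scale all fold changes are given and which understates those of low genes. It covered the 10140 genes with at least 5 TPM in 2 or more libraries, among them 55 of the 59 members, and a gene was called at a Benjamini-Hochberg adjusted p below 0.05. With the exception of U2AF1L4, these 55 were at or above 5 TPM in all 4 libraries, so the filter did not depend on a rise. Limma called 1 member higher (HNRNPH1) and 0 lower, 1.82% of those tested, against 2.86% of all tested genes, 1.79% higher and 1.07% lower. At an unadjusted p below 0.05, 26 members were higher (47.3%) and 0 lower, against 18.4% of all genes higher and 5.95% lower, 24.3% in all. Both shNUP210 values lay above both shCon values for 41 members (74.5%), against 42.9% of all genes, and below them for 0 members, against 14.3%. The log2 fold change was positive for 50 members (90.9%), against 68.9% of all genes, and above the median of all genes, by definition exceeded by 50% of them, for 37 members (67.3%).

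A trimmed-mean scaling of the libraries, which brings the median of all tested genes to 0.01, removed much of this. Under it HNRNPH1 was still called, with 0.769% of all genes called higher and 2.47% lower. At an unadjusted p below 0.05 there were then 6 members higher (10.9%) and 3 lower (5.45%), against 8.65% and 12.5% of all genes. A positive log2 fold change was left for 37 members, against 50.6% of all genes, and the members' median was 0.10.

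**Figure D1:**
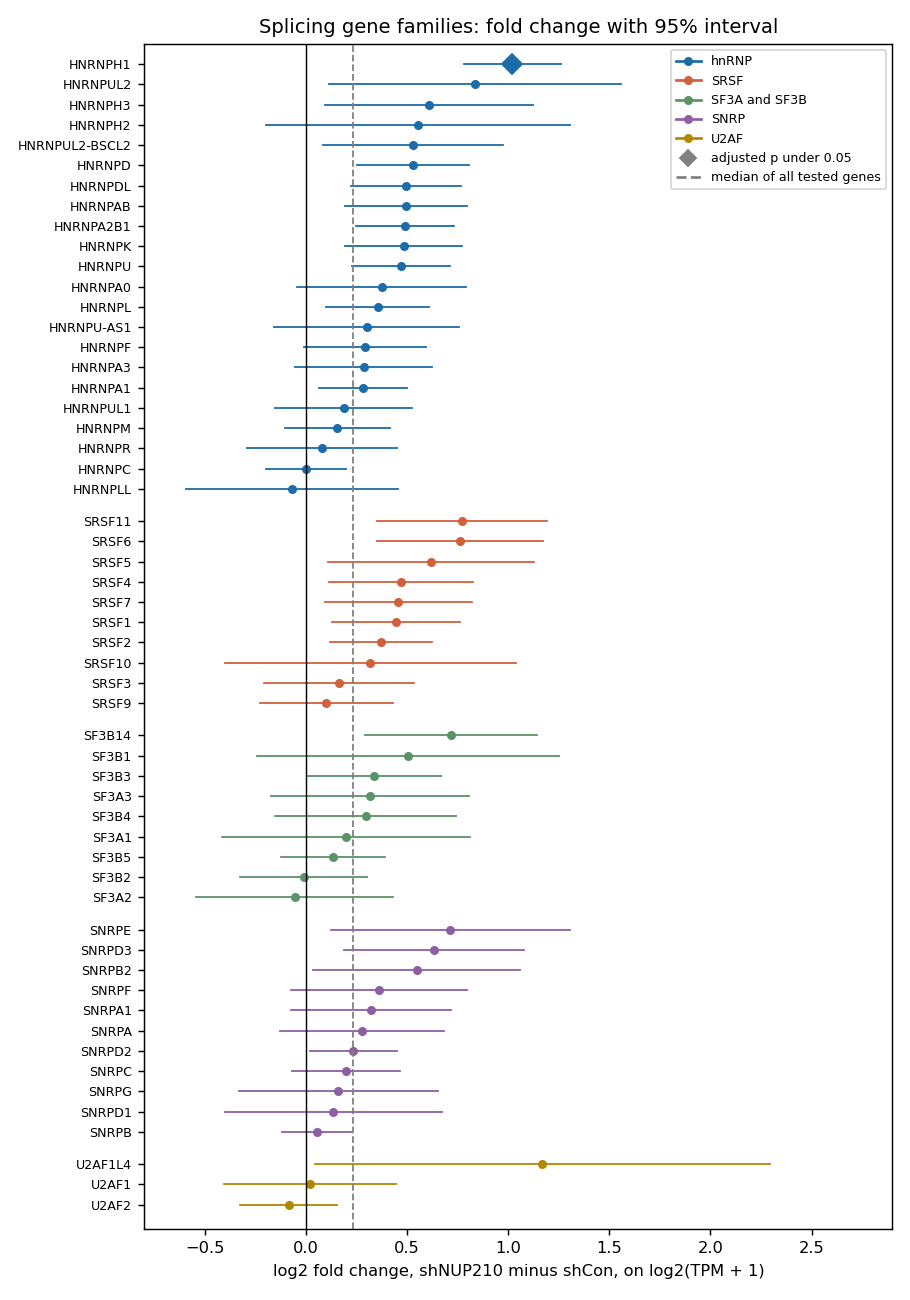
Log2 fold change (shNUP210 over shCon, log2(TPM + 1) scale) of each tested member, with limma's 95% interval, by family; the dashed line is the median of all tested genes, 0.23. HNRNPH1 at 1.02 is the called member, and the intervals of HNRNPC, SF3B2 and U2AF1 are centred close to 0.

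The hnRNP genes had a median log2 fold change of 0.42, with a range of -0.07 to 1.02 over the 22 tested of 23; 12 were higher at an unadjusted p below 0.05, 1 after adjustment, and 0 were lower. Of all tested genes 18.4% were higher and 5.95% lower at that unadjusted p. Under trimmed-mean scaling 3 hnRNP genes were higher and 1 lower at an unadjusted p below 0.05, against 8.65% and 12.5% of all tested genes. The summed level of the hnRNP genes was 4951 and 4983 TPM in shNUP210 cells, against 3927 and 3701 TPM in shCon cells, a ratio of 1.30. HNRNPH1 and HNRNPUL2 had the highest fold changes.

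HNRNPH1 (ENSG00000169045; GRCh38 chr5:179614178-179634784, minus strand), which binds runs of G in RNA, had 465 and 512 TPM in shNUP210 cells, against 237 and 244 TPM in shCon cells. The means were 488.8 ± 33.5 and 240.2 ± 4.94 TPM (SD, n = 2 each), a 2.04-fold difference, and the groups lay far apart beside the spread within each. The log2 fold change was 1.02 (SE 0.0969; 95% interval 0.78 to 1.26; limma adjusted p = 0.0138). Under 4 other scalings it was 0.78 to 0.98, with adjusted p between 0.0206 and 0.0280. The call was lost when any 1 library was left out (adjusted p 0.0754 to 0.12), with no filter on low genes (0.0758) or without the trend of variance with level (0.128).

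Its paralogues were less far apart. HNRNPH3 had 89.1 and 122 TPM in shNUP210 cells, against 75.9 and 61.2 TPM in shCon cells (log2 fold change 0.61; limma adjusted p = 0.159). HNRNPH2, the lowest of the group, had 10.2 and 11.1 TPM in shNUP210 cells, against 7 and 6.86 TPM in shCon cells (0.55; limma adjusted p = 0.312). HNRNPF, whose protein also binds G runs, had 115 and 113 TPM in shNUP210 cells, against 92.3 and 93.3 TPM in shCon cells (0.29; limma adjusted p = 0.216). For each of these the groups did not overlap, yet none passed the adjusted test. HNRNPH1 made up 68.5% and 67.6% of the summed TPM of these 4 genes in shNUP210 cells, against 57.5% and 60.2% in shCon cells. RNA of the HNRNPH1 pseudogene row was at 0 and 1.83 TPM in shNUP210 cells and at 0 in both shCon libraries, so the deposited estimate gave that copy little of the signal.

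Among the hnRNP A and B genes, which encode abundant splicing repressors, HNRNPA2B1 had 275 and 272 TPM in shNUP210 cells, against 199 and 190 TPM in shCon cells (log2 fold change 0.49; limma adjusted p = 0.0662). HNRNPAB had 336 and 280 TPM against 221 and 215 TPM in shCon cells (0.49; limma adjusted p = 0.0913). HNRNPA1, the most abundant hnRNP gene in shNUP210 cells, had 592 and 649 TPM there and 519.8 and 498 TPM in shCon cells (0.28; 95% interval 0.06 to 0.50; limma adjusted p = 0.139). In all 3 genes both shNUP210 values exceeded both shCon values. HNRNPA3 (251 and 206 TPM against 196 and 177 TPM in shCon cells) and HNRNPA0 (86.3 and 73.0 TPM against 66.4 and 56.1 TPM) were also without overlap, at log2 fold changes of 0.28 and 0.37. HNRNPA1 has many processed copies; its 16 pseudogene rows summed to 21.5 and 24.0 TPM in shNUP210 cells and 24.1 and 14.5 TPM in shCon cells. HNRNPA1L2, an HNRNPA1-like gene below the filter, stood at 3.94 and 3.23 TPM in shNUP210 cells and 1.27 and 1.92 TPM in shCon cells; as a near copy of HNRNPA1 its level is uncertain.

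HNRNPD encodes AUF1, which binds AU-rich elements of mRNAs; it had 356 and 347 TPM in shNUP210 cells, against 263 and 225 TPM in shCon cells (log2 fold change 0.53; limma adjusted p = 0.0721). Its relative HNRNPDL had 176 and 178 TPM against 123 and 128 TPM in shCon cells (0.50; limma adjusted p = 0.0758). HNRNPK, which binds C-rich sequence, had 362 and 356 TPM in shNUP210 cells and 280 and 235 TPM in shCon cells (0.48; limma adjusted p = 0.0896). HNRNPD, HNRNPDL, HNRNPK, HNRNPA2B1, HNRNPAB and HNRNPU, all above 100 TPM, thus had log2 fold changes between 0.47 and 0.53, with limma adjusted p between 0.0662 and 0.0913, and none of them overlapped between the groups. HNRNPL, which binds CA repeats, had 237 and 229 TPM in shNUP210 cells against 187 and 177 TPM in shCon cells (0.35; limma adjusted p = 0.121).

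HNRNPU, also known as scaffold attachment factor A, had 350 and 360 TPM in shNUP210 cells, against 268 and 245 TPM in shCon cells (log2 fold change 0.47; limma adjusted p = 0.0714). Its exons overlap those of COX20 on the opposite strand by 3502 bases, and COX20 stood at 76.5 and 103 TPM in shNUP210 cells and 48.3 and 42.5 TPM in shCon cells; whether reads were assigned by strand is not stated. A row named HNRNPU-AS1 is not an antisense RNA by its transcripts: GENCODE 29 places all 3 in HNRNPU itself, 1 as a retained intron and 2 as targets of nonsense-mediated decay. That row had 32.4 and 35.0 TPM in shNUP210 cells and 27.2 TPM in each shCon library (0.30; limma adjusted p = 0.361). HNRNPUL2, an hnRNP U-like gene, had 19.0 and 14.1 TPM in shNUP210 cells and 9.40 and 8.16 TPM in shCon cells (0.83; limma adjusted p = 0.165). It shares 2391 exon bases with the read-through gene HNRNPUL2-BSCL2, which had 42.3 and 40.9 TPM in shNUP210 cells and 26.9 and 30.1 TPM in shCon cells, so the split of reads between these rows is uncertain. HNRNPUL1 overlapped between the groups, at 261 and 225 TPM in shNUP210 cells and 232 and 195 TPM in shCon cells (0.19; limma adjusted p = 0.439).

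HNRNPC, HNRNPR, HNRNPM and HNRNPLL differed least. HNRNPC, whose protein binds U tracts and packages long pre-mRNAs, had 534 and 556 TPM in shNUP210 cells and 548 and 543 TPM in shCon cells. Its 95% interval of -0.20 to 0.20 excludes the log2 fold change of HNRNPH1 and of HNRNPD. HNRNPR (62.5 and 66.8 TPM against 64.1 and 58.2 TPM in shCon cells) had a log2 fold change of 0.08, and HNRNPM (276 and 312 TPM against 262 and 264 TPM) of 0.16. HNRNPLL, an HNRNPL relative known for its part in splicing in lymphocytes, was at 19.7 and 21.4 TPM in shNUP210 cells and 21.1 and 22.1 TPM in shCon cells, with an interval wide enough (-0.59 to 0.45) to hold the median hnRNP value. HNRNPC was the most abundant hnRNP gene in shCon cells and stood below HNRNPA1 in both shNUP210 libraries.

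**Figure D2:**
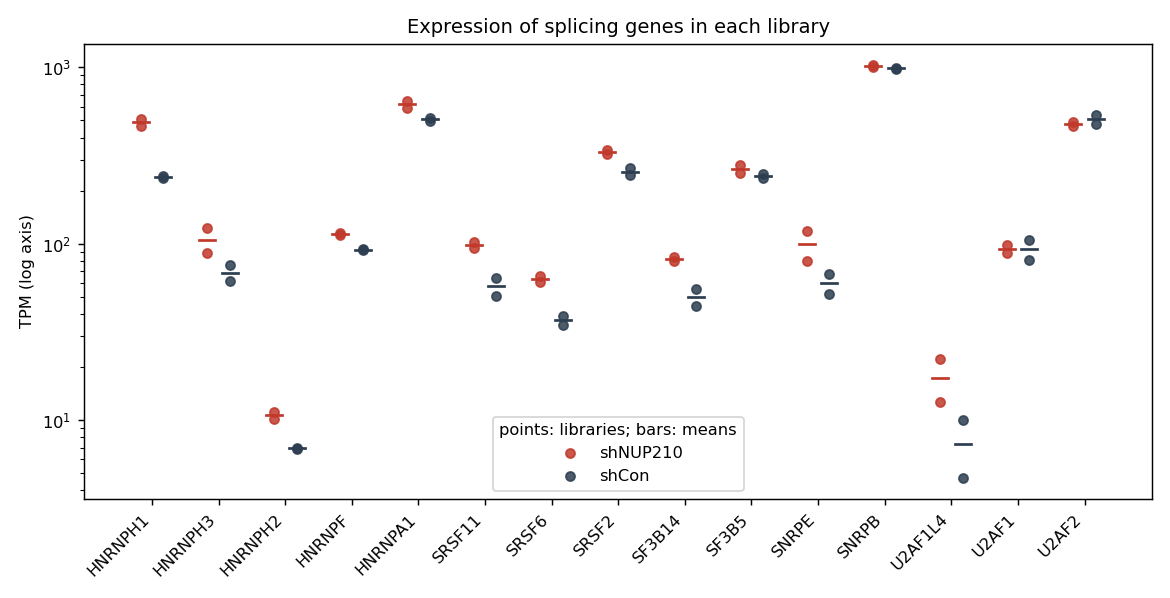
TPM (log axis) of 15 members in each library, points for libraries and bars for means, shNUP210 left of shCon. The 2 HNRNPH1 values in shNUP210 cells, 465 and 512 TPM, lie above the 237 and 244 TPM of shCon cells, while the points of U2AF1 and U2AF2 overlap between the groups.

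SRSF genes had a median log2 fold change of 0.45 over the 10 tested of 13, with a range of 0.10 to 0.77. At an unadjusted p below 0.05, 7 were higher and 0 lower, against 18.4% and 5.95% of all tested genes. Under trimmed-mean scaling 2 were higher and 0 lower, against 8.65% and 12.5% of all tested genes. Of the SRSF genes 0 passed the adjusted test. Their summed level was 1338 and 1289 TPM in shNUP210 cells, against 1006 and 1003 TPM in shCon cells, a ratio of 1.31. SRSF11 and SRSF6 were furthest apart.

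SRSF11, an SR-related factor, had 102 and 94.4 TPM in shNUP210 cells, against 50.6 and 64.2 TPM in shCon cells (log2 fold change 0.77; 95% interval 0.35 to 1.19; limma adjusted p = 0.0749). SRSF6 had 60.8 and 65.7 TPM in shNUP210 cells and 39.2 and 34.6 TPM in shCon cells (0.76; limma adjusted p = 0.0734). SRSF5 had 61.6 and 86.9 TPM in shNUP210 cells and 45.8 and 49.0 TPM in shCon cells (0.62; limma adjusted p = 0.154). The groups of all 3 were apart, but the 2 shNUP210 libraries differed widely from each other in SRSF5. SRSF4, a close relative of SRSF5 and SRSF6, had 99.8 and 108 TPM in shNUP210 cells and 80.1 and 69.8 TPM in shCon cells (0.47; limma adjusted p = 0.134).

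SRSF1, the founding SR protein, had 236 and 199 TPM in shNUP210 cells, against 164 and 154 TPM in shCon cells (log2 fold change 0.45; limma adjusted p = 0.118). SRSF2, whose protein marks nuclear speckles, had 322 and 340 TPM in shNUP210 cells and 244 and 267 TPM in shCon cells (0.37; limma adjusted p = 0.109). Its exons share 1106 bases with MFSD11. SRSF7, which also takes part in mRNA export, had 72.0 and 67.5 TPM in shNUP210 cells and 50.8 and 50.3 TPM in shCon cells (0.46; limma adjusted p = 0.144). SRSF3, with the same 2 roles, differed less, at 61.0 and 65.8 TPM in shNUP210 cells and 58.3 and 54.8 TPM in shCon cells (0.16; limma adjusted p = 0.535). SRSF10 and SRSF9 overlapped between the groups: SRSF10 had 58.5 and 38.0 TPM against 31.1 and 45.6 TPM in shCon cells, and SRSF9 had 259 and 217 TPM against 235 and 208 TPM. The direction of SRSF9 (0.10; 95% interval -0.23 to 0.43) turns to -0.14 under trimmed-mean scaling. SRSF12 (1.46 and 2.24 TPM in shNUP210 cells, 0.96 and 1.99 TPM in shCon cells) and 2 rows named SRSF8 were below the filter. Those rows stood at 0 and 1.28 TPM and at 4.59 and 3.71 TPM in shNUP210 cells, against 0.58 and 0.99 TPM and 5.67 and 2.18 TPM in shCon cells.

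U2AF genes had a median log2 fold change of 0.02 over 3 genes and a ratio of summed TPM of 0.968. U2AF2, the large subunit, which binds the polypyrimidine tract, had 466 and 493 TPM in shNUP210 cells and 480 and 540.0 TPM in shCon cells (-0.09; limma adjusted p = 0.614). U2AF1, the small subunit, which reads the AG at the 3′ splice site, had 99.1 and 88.7 TPM in shNUP210 cells and 105 and 81.3 TPM in shCon cells (0.02; limma adjusted p = 0.959). There were 4.71 and 5.56 U2AF2 transcripts per U2AF1 transcript in shNUP210 cells, against 4.57 and 6.64 in shCon cells, so the balance of the subunits overlapped between the groups. The U2AF1 paralogue U2AF1L4 had 12.7 and 22.2 TPM in shNUP210 cells and 4.68 and 10.1 TPM in shCon cells (1.17; 95% interval 0.04 to 2.29; limma adjusted p = 0.195). With 1 library left out its fold change ranged from 0.69 (without shCon replicate 1) to 1.65 (without shCon replicate 2). It shares 332 exon bases with PSENEN, which had 50.9 and 32.0 TPM in shNUP210 cells and 29.7 and 24.0 TPM in shCon cells.

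The SF3A and SF3B genes had a median log2 fold change of 0.30, 0.06 above that of all tested genes; without shNUP210 replicate 2 this difference was -0.052. In the full fit 2 of 9 were higher at an unadjusted p below 0.05, against 18.4% of all tested genes. Of the 9, 0 were lower, against 5.95%, and 0 were called after adjustment. Their summed level was 981 and 977 TPM in shNUP210 cells and 907 and 811 TPM in shCon cells. SF3B14, the older symbol of SF3B6, encodes the subunit that contacts the branch-site adenosine; it had 84.5 and 79.6 TPM in shNUP210 cells, against 44.2 and 55.4 TPM in shCon cells (0.72; 95% interval 0.29 to 1.14; limma adjusted p = 0.0871). SF3B3 had 111 and 101 TPM in shNUP210 cells and 86.6 and 80.7 TPM in shCon cells (0.34; limma adjusted p = 0.197). SF3B14 had the highest log2 fold change of the SF3A and SF3B genes, and the others ranged from -0.06 to 0.50. Its 95% interval reached down into that range.

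SF3B1, the largest subunit and the one most often mutated in blood cancers, had 27.8 and 49.1 TPM in shNUP210 cells and 27.3 and 24.4 TPM in shCon cells (0.50; limma adjusted p = 0.349). Its value was high in 1 shNUP210 library and near the shCon values in the other. SF3A3 had 56.4 and 58.3 TPM in shNUP210 cells and 39.4 and 53.4 TPM in shCon cells (0.32), and SF3B4 had 38.8 and 44.6 TPM against 35.1 and 32.3 TPM (0.30). SF3A1 was spread widely within both groups, at 183 and 141 TPM in shNUP210 cells and 176 and 111 TPM in shCon cells. SF3B5 had 253 and 279 TPM in shNUP210 cells and 236 and 248 TPM in shCon cells (0.13), a direction that turns to -0.11 under trimmed-mean scaling. SF3B2 (104 and 108 TPM against 112 and 102 TPM in shCon cells) and SF3A2 (124 and 116 TPM against 150.3 and 104 TPM) had log2 fold changes of -0.01 and -0.06, with overlapping groups.

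SNRP genes had a median log2 fold change of 0.27, 0.04 above that of all tested genes. This difference was -0.018 without shNUP210 replicate 2, -0.069 without shCon replicate 1 and 0.24 without shCon replicate 2. All 11 were tested and positive, against 68.9% of all tested genes. At an unadjusted p below 0.05, 4 were higher, against 18.4% of all tested genes, and 0 were called after adjustment. Under trimmed-mean scaling 6 of 11 were positive, against 50.6% of all tested genes. With that scaling 0 were higher and 1 lower at an unadjusted p below 0.05, against 8.65% and 12.5%. The summed level was 2889 and 2929 TPM in shNUP210 cells and 2411 and 2668 TPM in shCon cells. The 7 Sm core genes summed to 2420 and 2414 TPM in shNUP210 cells, against 2030 and 2230 TPM in shCon cells. Their products sit in equal numbers in the ring, but their transcripts were far from equal: the highest Sm gene had 45.9 and 36.7 times the TPM of the lowest in shNUP210 cells and 41.6 and 45.7 times in shCon cells.

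SNRPB, the highest, had 1036 and 1011 TPM in shNUP210 cells and 979 and 993 TPM in shCon cells (0.05; 95% interval -0.12 to 0.22; limma adjusted p = 0.664), and the sign turns under trimmed-mean scaling (-0.19). SNRPD2 had 774 and 775 TPM in shNUP210 cells and 624 and 695 TPM in shCon cells (0.23; limma adjusted p = 0.179). SNRPE had 119 and 80.2 TPM in shNUP210 cells and 51.9 and 67.2 TPM in shCon cells (0.71; 95% interval 0.12 to 1.30; limma adjusted p = 0.154). In SNRPD2 and SNRPE the groups did not overlap, though the shNUP210 libraries differed widely in SNRPE. SNRPD3 had 128 and 175 TPM in shNUP210 cells and 99.6 and 92.7 TPM in shCon cells (0.63; limma adjusted p = 0.117), with GUCD1 and GGT1 overlapping its exons. SNRPF had 61.4 and 50.6 TPM in shNUP210 cells and 41.8 and 44.5 TPM in shCon cells (0.36; limma adjusted p = 0.265). SNRPG and SNRPD1, the lowest of the Sm genes, overlapped between the groups: SNRPG had 280 and 295 TPM against 209.5 and 316 TPM in shCon cells, and SNRPD1 had 22.6 and 27.6 TPM against 23.5 and 21.8 TPM.

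The U1 and U2 specific proteins showed a like range. SNRPB2, a U2 protein, had 28.5 and 26.4 TPM in shNUP210 cells and 17.9 and 19 TPM in shCon cells (0.55; limma adjusted p = 0.184). Its partner SNRPA1 had 94.8 and 104 TPM in shNUP210 cells and 71.4 and 88.0 TPM in shCon cells (0.32; limma adjusted p = 0.272). Both were without overlap. Of the U1 proteins, SNRPC had 191 and 208 TPM in shNUP210 cells and 172 and 176 TPM in shCon cells (0.20; limma adjusted p = 0.312), and SNRPA had 155 and 176 TPM against 120 and 155 TPM in shCon cells, where the lowest shNUP210 value lay just under the highest shCon value.

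**Figure D3:**
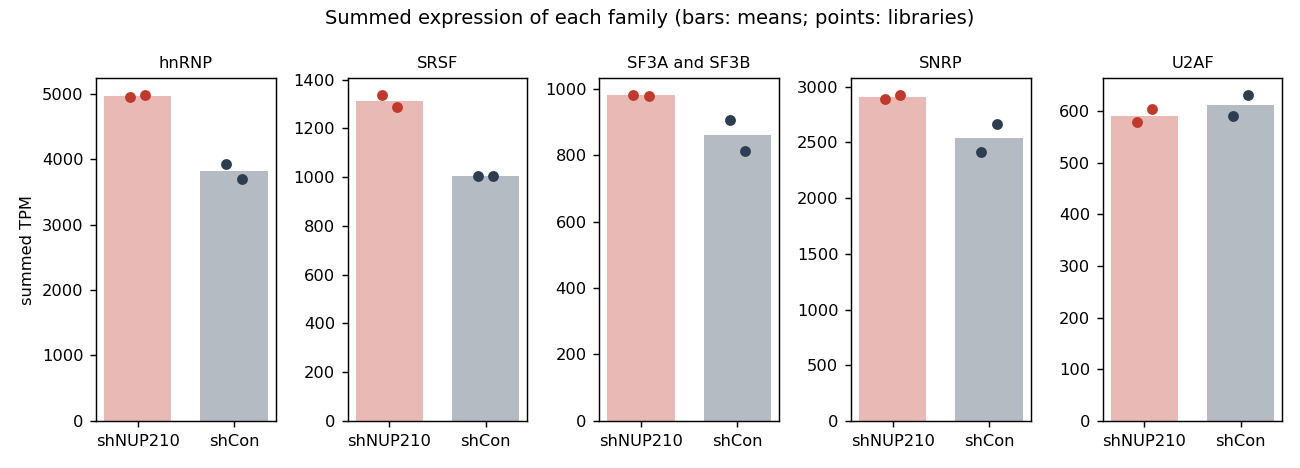
Summed TPM of each family in each library, shNUP210 left of shCon; bars are means of 2 libraries and points the libraries. The hnRNP bars rest on 4951 and 4983 TPM in shNUP210 cells and 3927 and 3701 TPM in shCon cells, and the U2AF points overlap.

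The families differed in how far they stood from the whole transcriptome. Set against all tested genes, the median log2 fold change was 0.19 higher for hnRNP and 0.22 higher for SRSF genes, and 0.21 lower for U2AF genes. Over the 13 hnRNP genes without an exon overlap, a choice made after seeing the data, the median log2 fold change was 0.29. Differences between families were not tested. Over the 55 tested members, the median absolute difference between the replicates of a gene was 0.117 (log2) in shNUP210 cells and 0.131 in shCon cells. Between the group means it was 0.338 on the deposited scale. That figure includes the shift of genes as a whole, whose median log2 fold change on this scale was 0.23. Under trimmed-mean scaling the members' median log2 fold change was 0.10.

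Fold changes of all genes were smaller at higher levels, and in each of 6 classes of level the members' median lay above that of all genes. Among all tested genes the median log2 fold change was 0.32 below 20 TPM, 0.18 at 50 to 100 TPM, 0.03 at 200 to 500 TPM and -0.07 at 500 TPM or more. The 15 members at 50 to 100 TPM had a median of 0.46, and 13 of them had both shNUP210 values above both shCon values, against 44.5% of all genes at that level. At 200 to 500 TPM the median of 15 members was 0.35, with 11 without overlap, against 37.5% of all genes. The 4 members at 500 TPM or more (HNRNPA1, HNRNPC, SNRPB and SNRPD2) had a median of 0.14.

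**Figure D4:**
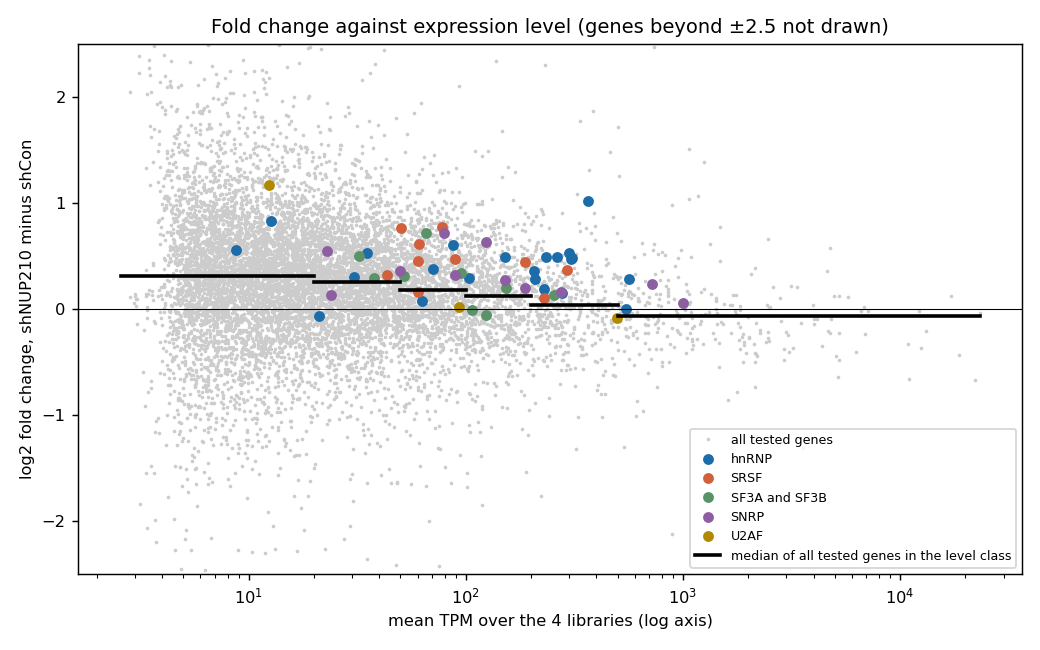
Log2 fold change (shNUP210 over shCon) against mean level over the 4 libraries (TPM, log axis) for all tested genes (grey) and members by family; the line is the median of all tested genes in 6 classes of level, 0.32 in the lowest and -0.07 in the highest. Most members from 50 to 500 TPM lie above the line; genes beyond 2.5 in either direction are not drawn.

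Many of these genes have annotated transcripts of the kinds through which splicing factors are known to limit themselves. In GENCODE 29, 32 of the 54 tested protein-coding members (59.3%) had at least 1 transcript marked as a target of nonsense-mediated decay, against 45% of all tested protein-coding genes, and 36 (66.7%) had a retained intron, against 62.5%. All 10 tested SRSF genes and all 3 U2AF genes had a transcript of the first kind, against 3 of 9 SF3A and SF3B genes and 4 of 11 SNRP genes. HNRNPH1 has 50 listed transcripts; of 49 with a type, 4 are decay targets and 16 retain an intron. The deposited gene values sum over transcripts, so productive and degraded forms were not told apart here.

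The members' promoters were searched in RefSeq (GRCh38.p14) for 5 short motifs on both strands, in the 250 bases before each start site; 51 of the 59 members matched, with 70 windows. The families differed in the motifs they hold, and some of the sites nearest to the start are printed below to show this. The ETS core CCGGAAG was present in 19 of 51 members (37.3%), against 20.2% of tested genes and 10.2% of all genes, and was held by 7 of 10 SNRP and 6 of 8 SF3A and SF3B genes but by 3 of 20 hnRNP and 2 of 10 SRSF genes. CCAAT was present in 43.1% of members and 42.2% of tested genes; here 16 of 20 hnRNP genes held it, against 1 of 10 SRSF and 1 of 8 SF3A and SF3B genes. A palindrome of 10 bases, in capitals in the last group below, was present in 3 of 51 members (5.88%), against 0.874% of tested genes. The GC box GGGCGG (64.7% of members, 76.3% of tested genes) and TATAAA (13.7% and 7.5%) were also counted. These matches are descriptions of sequence, not of binding, and were not tested against the fold changes.

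Each site is given as 30 bases, 5′ to 3′ on the strand that reads the motif, with the motif in capitals. ETS cores of SNRP and SF3 genes lay at chr20:16729993-16730022 (minus strand) in SNRPB2, chr20:2470812-2470841 (minus) in SNRPB, chr19:45692361-45692390 (plus) in SNRPD2, chr2:24076327-24076356 (plus) in SF3B14 and chr11:66052334-66052363 (minus) in SF3B2, at 16, 35, 57, 13 and 8 bases before the start:
SNRPB2: cggagccaggcaCCGGAAGcaacgtagcca
SNRPB: agtgagctggaCCGGAAGtaggtttctacc
SNRPD2: ccctgcctacatCCGGAAGgggcatggacc
SF3B14: atccaggacccgCCGGAAGctgttacagcg
SF3B2: gaccaacCCGGAAGctggggccagcctcag

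The hnRNP genes are represented by CCAAT boxes at chr19:38849987-38850016 (minus) in HNRNPL, chr14:21269479-21269508 (minus) in HNRNPC, chr4:82430502-82430531 (plus) in HNRNPDL and chr10:43397318-43397347 (plus) in HNRNPF, at 13, 50, 53 and 54 bases before the start. These boxes read as follows:
HNRNPL: gcgtgtccctcccCCAATgagaggcggggg
HNRNPC: aaaaacgcacagCCAATaggaagattctca
HNRNPDL: ggcctgacggcggCCAATcggcgctggcgc
HNRNPF: cgccaagatgtcaCCAATgggaaacgcgtg

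The palindrome was found at chr1:23980360-23980389 (plus) in SRSF10, chr9:83980653-83980682 (plus) in HNRNPK and chr10:68331971-68332000 (plus) in HNRNPH3, at 43, 48 and 74 bases before the start:
SRSF10: aaccgactctTCTCGCGAGActtcactccc
HNRNPK: ggggcgaaccTCTCGCGAGAtctaacaact
HNRNPH3: gactttcccgTCTCGCGAGAgtggggccgg
In the 4 windows of HNRNPH1 these letters, the ETS core and CCAAT were not found; 1 window held a GC box.

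Beyond the members, 142 of 154 other splicing genes in 7 lists were tested. Limma called 2 higher and 0 lower; at an unadjusted p below 0.05, 42 were higher (29.6%) and 3 lower, against the 18.4% and 5.95% of all genes given above, and the median log2 fold change was 0.32. The highest list medians were those of SR protein kinases and SR-related proteins (0.46; 13 tested) and of other splicing regulators (0.42; 38 tested, 18 higher at an unadjusted p). The medians were 0.38 for the exon junction complex (10 tested), 0.33 for activation and catalytic-step proteins (20), 0.29 for other snRNP-specific and branch-site proteins (38) and 0.17 for LSM ring proteins (9). The factors that assemble snRNPs stood at 0.09 (14 tested, 0 higher and 1 lower at an unadjusted p).

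The called genes were MBNL3, a muscleblind-family splicing regulator, and ACIN1, a component of the exon junction complex. MBNL3 had 80.6 and 83.0 TPM in shNUP210 cells, against 29.7 and 21.7 TPM in shCon cells (log2 fold change 1.65; limma adjusted p = 0.0275). ACIN1 had 162 and 172 TPM in shNUP210 cells, against 105 and 98.8 TPM in shCon cells (0.71; limma adjusted p = 0.0487), and this call was lost under every alternative run (adjusted p 0.0543 to 0.197). MBNL3 kept its call under the 4 other scalings and lost it without any 1 library (adjusted p 0.0915 to 0.15).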

How the data were processed

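Per the labels' protocols, libraries came from Trizol-extracted total RNA (TruSeq RNA kit, Illumina). Gene-level TPM values were deposited by the authors, 1 table for each of 4 Huh7 libraries (2 shNUP210, 2 shCon). Trimmomatic, STAR, RSEM, DESeq and hg38 are named in the submitters' processing notes, with no order or role; the annotation release and the use of strand are not given in the sources used here. TPM keeps no read depth, and each library summed to between 999992.7 and 999997.8. No library was identical to another over all genes.

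Members were found by symbol. Log2(TPM + 1) values of genes with at least 5 TPM in 2 libraries were fitted with limma 3.58.1 (R 4.3.3; trended empirical Bayes), and p-values were adjusted by Benjamini-Hochberg over all 10140 tested genes. The script was tested on simulated data. Families are described by counts and medians beside all tested genes, and an exact permutation test of 2 against 2 libraries cannot go below p = 0.333. All 59 members are accounted for in the text, as are called genes of the 7 other lists. The members and lists were chosen with earlier results of these data known. Gene positions and transcript types are from GENCODE 29 (GRCh38), and an exon overlap of 100 bases or more was noted; 17 members had one. Alternatives were 4 scalings, other filters, a pseudocount of 0.1, no variance trend, a replicate block and leaving out each library. Of a leukocyte marker list, part is not reported here.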

Additional observations from a re-analysis of the deposited data

How the results depend on the processing

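The number of genes called over all tested genes, 290, was 57 with a filter of 1 TPM, 14 with no filter, 0 without the variance trend, 63 with the replicate block and 4 to 27 when 1 library was left out. HNRNPH1, the 1 member called, was not called with no filter or without the trend (0 members each), nor when any library was left out (0 members; log2 fold change 0.95 to 1.09); the replicate block kept it (limma adjusted p = 0.0356). The 2 libraries of equal number share only that number: the correlation of their deviations was 0.0231 over all tested genes and 0.155 over members, across genes, which are not independent. Calls among the other splicing genes, 2, came to 1 under each of the 4 scalings and with a pseudocount of 0.1, and to 0 with a filter of 1 TPM, no filter, no trend, the replicate block or any library left out.

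Family medians moved with the scaling, the filter and the libraries used, and why they differed between libraries was not tested. Under trimmed-mean, median-ratio, upper-quartile and quantile scaling they were 0.18, 0.18, 0.22 and 0.27 for hnRNP, 0.21, 0.21, 0.25 and 0.33 for SRSF, 0.058, 0.062, 0.094 and 0.10 for SF3A and SF3B, 0.033, 0.037, 0.070 and 0.17 for SNRP, and -0.22, -0.22, -0.18 and -0.11 for U2AF genes. With a filter of 1 TPM and with no filter the hnRNP median was 0.47 and 0.47, and that of SRSF 0.41 and 0.37. Without members whose exons overlap another gene, an alternative chosen after seeing the data, the hnRNP median was 0.29 over 13 genes. The median was then 0.46 for SRSF, 0.32 for SF3A and SF3B, 0.23 for SNRP and 0.02 for U2AF (1 gene). Leaving out 1 library gave medians of 0.34 to 0.46 (hnRNP), 0.41 to 0.48 (SRSF) and 0.20 to 0.35 (SF3A and SF3B). For SNRP genes the medians were 0.18 to 0.45 and for U2AF genes -0.046 to 0.20. In those fits the p-values, not the medians, assume that the lone library of a group varies like the other group.

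Of the 50 members above 0, 13 turned negative under trimmed-mean scaling; SNRPD2 (0.23), HNRNPUL1 (0.19) and HNRNPM (0.16) became -0.010, -0.057 and -0.088, and SRSF3 and SNRPC became -0.077 and -0.045. Under trimmed-mean, median-ratio and upper-quartile scaling the log2 fold change was -0.14, -0.14 and -0.11 for SRSF9, -0.11, -0.10 and -0.072 for SF3B5, -0.19, -0.19 and -0.15 for SNRPB and -0.22, -0.22 and -0.18 for U2AF1, which was -0.13 under quantile scaling. Leaving out 1 library gave -0.029 to 0.23 for SRSF9, -0.32 to 0.21 for SF3A2, -0.16 to 0.20 for U2AF1 and -0.077 to 0.052 for SF3B2. The read depth is unknown, so no limit from counting could be set.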

Other observations

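SMN1 and SMN2, near-identical genes of the factor that loads Sm proteins onto small nuclear RNAs, are named here after their values were seen. SMN1 had 74.8 and 24.3 TPM in shNUP210 cells and 26.5 and 21.2 TPM in shCon cells, whereas SMN2 had 5 and 46.8 TPM in shNUP210 cells and 43.3 and 41.7 TPM in shCon cells. Their sum varied less than the split, at 79.8 and 71.1 TPM in shNUP210 cells and 69.8 and 62.9 TPM in shCon cells. It was higher in both shNUP210 libraries than in both shCon libraries, but only by 71.1 against 69.8 TPM at the nearest. Of all tested genes, 42.9% were likewise without overlap and higher. The split between such copies is uncertain in estimates of this kind.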
